A study of Mus musculus with 9 samples.

Results

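CD8 T cells that had met their antigen as a weak tolerizing signal (deletion) were compared with CD8 T cells that had met it as a strong tolerizing signal (anergy), on 6 of the 9 arrays of the series. All 3 deletion arrays and all 3 anergy arrays, as labelled, were used over all 1246 probe sets. The 3 arrays of naive cells served as a reference level and entered the shared estimate of the spread, but not the difference itself. The cells in all 3 groups were purified CD8 T cells with a transgenic T cell receptor, from female B10D2 mice, and the deletion and anergy cells had been stimulated in vivo with their cognate antigen. Which transgenic receptor, antigen, dose, time and host were used is not stated in the labels. The labels number the arrays of a group as replicates without saying that each came from its own animal, so the p-values cover the spread among arrays of a group, and that spread could be technical only. The study asked how RNAs of protein glycosylation differ between the 2 outcomes of tolerance. Its array, the custom GLYCOv4 design, covers enzymes that build and break glycans, proteins that bind or carry them, and many cytokine and chemokine genes with their receptors.

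Peripheral tolerance removes or silences T cells that recognise self antigen. In deletion the responding cells divide and then die, whereas in anergy they survive and respond poorly when they meet the antigen again. Sugars on the surface of a T cell, sialic acid above all, change as the cell is activated, and they set which lectins and adhesion molecules can bind it.

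On the log2 scale of the deposited values, where a difference of 1 is a 2-fold difference, 42 probe sets (3.37% of 1246) differed between deletion and anergy at an adjusted p under 0.05 (limma, Benjamini-Hochberg over all probe sets). Of these, 26 (2.09%) were higher in deletion and 16 (1.28%) were lower. Each count of called genes in a list below is to be read beside these shares. The lists were chosen with earlier results of these data known, so the counts only describe. Cells given the strong signal had more RNA for the inhibitory receptor genes Klrc1 and Havcr2, the cytokine receptor chains Il1rl1, Il2ra and Il12rb2 and the chemokine receptors Ccr6 and Cxcr4. Cells given the weak signal had more RNA for Igf1r and Igfbp7, for the cytokine receptor chains Il27ra and Csf2ra, for the sialyltransferases St6gal1, St8sia1 and St3gal4, for the surface molecules Cd83, Pecam1 and Cd2, and for the lysosomal genes Lipa, Gm2a and Arsa. Not all of these calls were firm. In a fit of the 6 compared arrays only, Cxcr4, Igf1r, Csf2ra, St3gal4, Cd83, Cd2, Lipa, Gm2a and Arsa missed the threshold. Of the 36 genes past it in the main fit, 14 passed under each alternative followed gene by gene. Over the 42 probe sets, differences ranged in size from 0.27 to 1.87. At least 2-fold differences were found for 5 probe sets higher in deletion and 6 lower. The share of higher against lower calls moved with the scaling. With quantile normalization it was 32 higher and 38 lower, and with the medians of the arrays set equal it was 13 higher and 13 lower.

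The deletion and anergy arrays did not overlap for any of the 42 probe sets. A call on these same arrays makes that likely, so it is no separate support. Over all probe sets they did not overlap for 207 (16.6%), 137 (11%) with the deletion arrays higher and 70 (5.62%) with them lower. With the replicate number as a block 55 probe sets passed (4.41%), 33 higher and 22 lower. Probe sets that were higher in deletion had a median level of 7.30, those that were lower one of 5.81, and all probe sets one of 4.5. The array of anergy replicate 3 stood apart from the other 8. Its interquartile range was 3.415, against 3.6375 to 3.8275 on the other arrays, and among the 312 brightest probe sets its median difference from the other anergy arrays was -0.255. It was the lowest anergy array for 21 of the 26 probe sets that were higher in deletion, against 478 of all 1246. Without it 17 probe sets were higher and 19 lower, and 14 of the 26 and 15 of the 16 kept their call. Leaving out deletion replicate 2 left 8 higher and 12 lower.

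**Figure D1:**
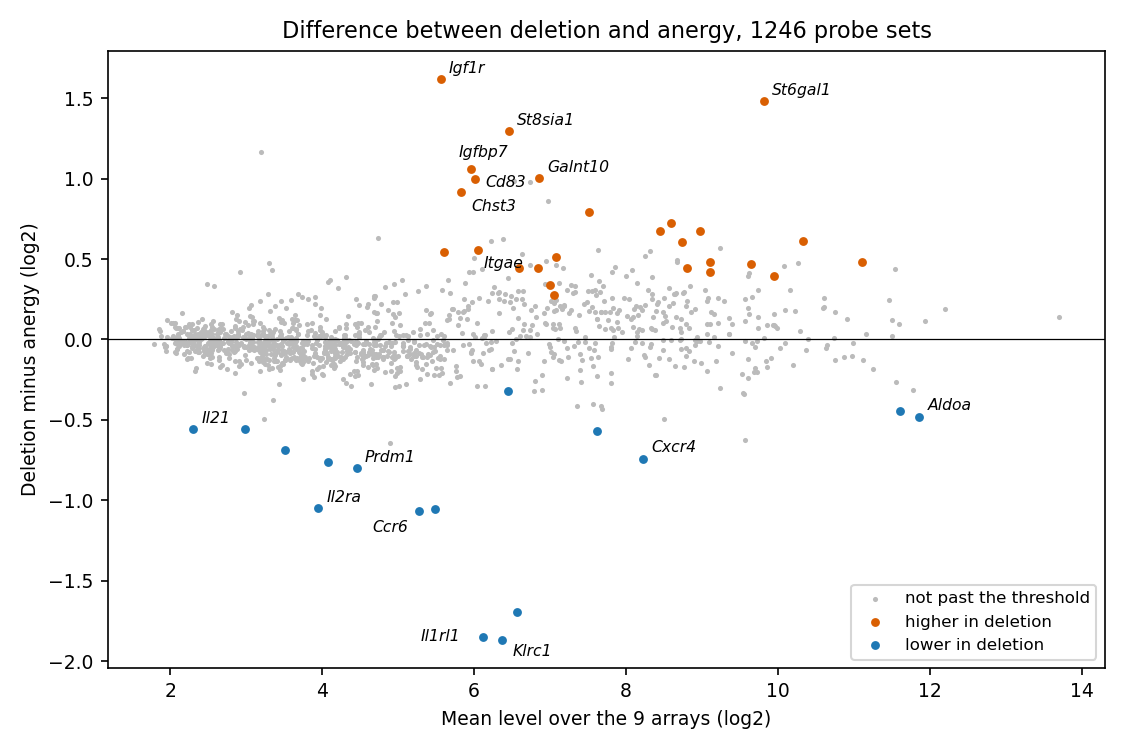
Difference between deletion and anergy (deletion minus anergy, log2) against the mean level over the 9 arrays (log2) for all 1246 probe sets, with 1 point per probe set. The 26 probe sets higher in deletion are orange and the 16 lower ones blue; the points with the largest differences, Klrc1 at -1.87 and Igf1r at 1.62, lie near the middle of the range of levels.

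Klrc1 had the largest difference of all. It encodes NKG2A, which pairs with CD94, the product of Klrd1, to form an inhibitory receptor on NK cells and activated CD8 T cells. Klrc1 had a level of 8.69, 8.60 and 8.55 on anergy replicates 1 to 3 and of 6.68, 6.42 and 7.14 on deletion replicates 1 to 3. The naive arrays read 3.76, 4.02 and 3.43. Both antigen groups therefore lay above naive cells, the anergy group further, and no groups overlapped. Deletion was lower than anergy by a log2 difference of -1.87 ± 0.18 (standard error, SE; adjusted p = 0.000368, limma), so that anergy cells had 3.65 times the level. The related Klrc3, another NKG2 chain, differed by -0.56 ± 0.10 (adjusted p = 0.0143). Its anergy arrays read 3.36, 3.31 and 3.48, its deletion arrays 2.87, 2.65 and 2.96, and its naive arrays 2.60, 2.82 and 2.85, so only anergy stood apart from naive. The values of Klrc3 all lie below the median level of all probe sets, 4.5, and no detection call was used. The probe set of Klrc3 can bind more than 1 transcript, as can that of Klrc1. Without anergy replicate 3 or deletion replicate 2 the adjusted p of Klrc3 was 0.0502 or 0.0513.

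The partner chain Klrd1 did not pass the test. It read 10.38, 10.16 and 10.52 in deletion and 10.53, 10.53 and 10.38 in anergy, with naive arrays at 11.33 to 11.51. Its difference of -0.13 had 95% limits of -0.34 and 0.09. Klrk1, which encodes the activating receptor NKG2D, differed by -0.50 and did not pass (adjusted p = 0.0858), although it did without deletion replicate 1 (adjusted p = 0.0368). Of 18 measured NK-type lectin receptors, 2 were lower in deletion and none higher, with a median difference of -0.07 against -0.01 over all probe sets. The 2 NK cell markers that were measured, Klra4 and Klra8, differed by -0.08 and 0.06. Both were dim in every group, with no detection call, and their part in the result was not tested: their mean level was 2.61 to 2.69 in deletion, 2.65 to 2.69 in anergy and 2.63 to 2.82 in naive cells.

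Il1rl1 encodes ST2, the receptor chain that binds interleukin-33. It read 8.18, 8.26 and 8.0 in anergy, 6.29, 6.29 and 6.32 in deletion, and 3.50, 4.13 and 4.14 in naive cells. The order of the groups was that of Klrc1, with no overlap, and the difference was -1.85 ± 0.15 (adjusted p = 0.000252, limma), or 3.60 times more in anergy. A second probe set of Il1rl1 read 3.69, 3.63 and 3.57 in deletion and 3.75, 3.68 and 3.78 in anergy and did not pass, so the probe sets of this gene disagree. Of 18 measured genes of the interleukin-1 family, Il1rl1 was the only one to pass. The co-receptor Il1rap differed by 0.05 (95% limits -0.18 and 0.28), and the next smallest p-values belonged to Il1rl2 and Il1f6, with differences of -0.22 and -0.13.

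The 2 chains of the interleukin-18 receptor lay above the naive level in both antigen groups. Il18r1 read 8.93, 8.70 and 8.65 in deletion and 8.93, 8.96 and 8.68 in anergy, against 7.02 to 7.16 in naive cells. Its difference of -0.10 had 95% limits of -0.32 and 0.12, and that of Il18rap, 0.19, had limits of -0.04 and 0.43. Neither passed the test.

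For Il2ra, Il21, Prdm1, Havcr2, Ccr6, Cxcr4 and Aldoa, deletion cells lay at the level of naive cells and only anergy cells stood above it. Il2ra encodes CD25, the chain that gives the interleukin-2 receptor its high affinity. It is also a marker of regulatory T cells, the 1 measured gene of 6 listed CD4 and regulatory T cell markers, whose part in the result was not tested. It read 4.65, 4.84 and 4.57 in anergy, 3.79, 3.39 and 3.74 in deletion, and 3.59, 3.49 and 3.50 in naive cells. The deletion and naive arrays overlapped, and the difference from anergy was -1.05 ± 0.11 (adjusted p = 0.000525, limma), or 2.07 times more in anergy. The other chains of that receptor did not pass. Il2rb read 9.85, 9.73 and 9.61 in deletion and 10.14, 10.05 and 9.91 in anergy, a difference of -0.30 (adjusted p = 0.114), which passed with the replicate number as a block (adjusted p = 0.0344). The difference of Il2rg was 0.11 (95% limits -0.06 and 0.29).

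Il21, a cytokine of activated helper T cells that also acts on CD8 T cells, was low in every sample. It read 2.68, 2.54 and 2.79 in anergy, 2.16, 2.17 and 2.01 in deletion, and 2.19, 2.04 and 2.19 in naive cells, a difference of -0.56 ± 0.08 (adjusted p = 0.00514, limma). These values lie near the lowest of the table, 1.67, and no detection call was used to show whether they exceed background. The receptor chain Il21r differed by 0.26 and did not pass (adjusted p = 0.136). Prdm1 encodes Blimp-1, a transcription factor of effector and exhausted T cells. Its anergy arrays read 4.68, 5.19 and 5.02, its deletion arrays 4.12, 4.07 and 4.30, and its naive arrays 4.30, 4.18 and 4.24, a difference of -0.80 ± 0.12 (adjusted p = 0.00514, limma). Havcr2 encodes the inhibitory receptor Tim-3. Its anergy arrays read 4.35, 4.77 and 4.73, its deletion arrays 3.82, 3.78 and 3.96, and its naive arrays 3.81, 3.59 and 3.86. The difference was -0.76 ± 0.12 (adjusted p = 0.00608, limma). Galectin-9, a lectin that binds Tim-3 and is encoded by Lgals9, differed by -0.21 (95% limits -0.46 and 0.03).

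Of 15 measured genes of T cell activation and unresponsiveness, 4 were lower in deletion (Il2ra, Il21, Prdm1 and Havcr2) and 1, Cd83, was higher. The median over the list was 0.22, opposite in sign to most of its calls. Ifng, Ccl3, Ccl4 and Xcl1, cytokines and chemokines that CD8 T cells make soon after activation, had positive differences that did not pass. Ifng read 8.39, 7.85 and 9.29 in deletion and 7.76, 8.26 and 8.48 in anergy, so the groups overlapped, and both lay above the naive arrays at 3.82 to 4.43. Ccl4 read 8.07, 8.58 and 9.26 in deletion and 7.72, 7.79 and 7.81 in anergy. Its difference of 0.86 (adjusted p = 0.0863) passed with the replicate number as a block (adjusted p = 0.0344) and without deletion replicate 1 (adjusted p = 0.0156). The difference was 0.22 for Ccl3, 0.47 for Xcl1 and 0.28 for Ccl5. Deletion replicate 3 was the highest of the deletion and anergy arrays for each of Ifng, Ccl3, Ccl4, Ccl5 and Xcl1. Il10 differed by -0.33 (adjusted p = 0.106) and Cd44 by -0.12.

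Within 250 bases upstream of the RefSeq start sites (GRCm38.p6), the genes that were lower in deletion, with deletion arrays overlapping naive ones, were searched on both strands. The AP-1 motif, TGA(C/G)TCA, was searched in the looser form TGANTCA with N any base, and the NFAT motif as TGGAAA. AP-1 and NFAT are factors that antigen receptor signals bring to T cell promoters, and no match of one motif overlapped a match of the other in the promoters shown. The 9 such genes had 12 promoters, some of which overlap or belong to the same gene. Of the 12, 3 held the AP-1 letters and 4 the NFAT letters, against 6.75% and 18.6% of all 32851 promoters of this length. The 12 are few and not independent, and no difference from these shares was tested. Those of the activation genes Il21, Prdm1 and Havcr2 are shown, in the direction of each gene, because they hold a match, whereas that of Il2ra held none. Capitals mark the matched letters: NFAT, once on each strand, in Il21 (chr3:37232637-37232886, minus strand), and AP-1 in Prdm1 (chr10:44458749-44458998, minus strand) and in Havcr2 (chr11:46454681-46454930, plus strand).
Il21: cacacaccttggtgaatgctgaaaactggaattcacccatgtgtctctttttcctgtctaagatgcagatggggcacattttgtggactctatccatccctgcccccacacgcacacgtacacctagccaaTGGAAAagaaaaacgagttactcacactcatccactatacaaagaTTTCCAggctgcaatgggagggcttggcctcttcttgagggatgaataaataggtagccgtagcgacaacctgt
Prdm1: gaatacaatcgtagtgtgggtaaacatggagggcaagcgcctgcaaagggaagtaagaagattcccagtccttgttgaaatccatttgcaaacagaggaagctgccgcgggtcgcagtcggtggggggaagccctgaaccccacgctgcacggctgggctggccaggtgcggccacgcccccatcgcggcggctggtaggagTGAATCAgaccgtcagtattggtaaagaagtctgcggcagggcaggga
Havcr2: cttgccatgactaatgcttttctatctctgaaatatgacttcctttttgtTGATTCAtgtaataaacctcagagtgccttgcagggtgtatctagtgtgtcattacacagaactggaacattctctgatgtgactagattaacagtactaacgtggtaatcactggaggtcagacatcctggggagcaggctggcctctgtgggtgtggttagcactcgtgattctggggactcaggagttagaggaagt
The middle base of the AP-1 match is A in Prdm1 and T in Havcr2, so neither has the C or G of the strict motif. The other match, in Aldoa, reads TGAGTCA. A match gives the letters only, and binding was not measured.

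Among the chemokine receptors, 2 of 20 measured genes were lower in deletion and none was higher, with a median of -0.04. Ccr6, the receptor of CCL20, read 5.97, 6.13 and 5.80 in anergy, 5.02, 4.73 and 4.95 in deletion, and 4.93, 5.07 and 4.84 in naive cells, a difference of -1.07 ± 0.11 (adjusted p = 0.000368, limma). Cxcr4, which binds CXCL12 and guides cells to bone marrow and lymphoid tissue, read 8.86, 8.89 and 8.35 in anergy, 8.03, 7.86 and 7.99 in deletion, and 8.07, 8.13 and 7.88 in naive cells. The difference was -0.74 ± 0.14 (adjusted p = 0.0191, limma). Anergy replicate 3 was the lowest anergy array for both genes, and without it the difference of Cxcr4 was -0.92 (adjusted p = 0.00122). The call of Cxcr4 was lost with array medians set equal (adjusted p = 0.0597) and without anergy replicate 1 or 2 or deletion replicate 2 or 3 (adjusted p = 0.055, 0.0744, 0.0883 and 0.0563). Cx3cr1 differed by -0.29 and Cxcr3, the receptor of interferon-induced chemokines, by -0.62, with adjusted p-values of 0.0642 and 0.0703. With quantile normalization 4 chemokine receptors were lower. None of 29 measured chemokines passed; Ccl4, Xcl1 and Ccl25 (0.27) had the smallest p-values. The ligands Ccl20 and Cxcl12 differed by -0.05 and -0.12.

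Il12rb2, the signalling chain of the interleukin-12 receptor, had naive arrays that lay between the groups without overlap on either side. It read 3.74, 3.79 and 3.98 in anergy, 3.56, 3.55 and 3.60 in naive cells, and 3.22, 3.08 and 3.14 in deletion. All of these lie below the median level of all probe sets, 4.5, and no detection call was used. The difference was -0.69 ± 0.07 (adjusted p = 0.000567, limma). Its partner Il12rb1 differed by -0.29 (adjusted p = 0.244). Il27ra, the specific chain of the interleukin-27 receptor, went the other way, with 9.42, 9.54 and 9.51 in deletion, 9.10, 9.01 and 8.95 in anergy and 10.33 to 10.46 in naive cells. Both groups lay below naive cells, anergy further, and the difference was 0.47 ± 0.07 (adjusted p = 0.00397, limma). Its partner Il6st, or gp130, had a difference of 0.57 in the same direction that just missed the threshold (adjusted p = 0.0516). Among 12 measured genes of the interleukin-12 and interleukin-6 types, 1 was higher in deletion and 1 lower, with a median of -0.03. Among 13 of the interleukin-2 family none was higher and 2 were lower, with a median of 0.01.

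The 19 sets of a receptor with its ligands or binding proteins were written from textbook knowledge after the files were at hand. They serve only to describe. In them 54 of 57 genes were measured, with 4 higher in deletion and 9 lower, against 2.09% and 1.28% of all probe sets. Earlier results of these data were known when the genes were chosen, so these counts do not measure enrichment. In each of the receptors of interleukin-2, interleukin-12, interleukin-27, interleukin-33 and GM-CSF, exactly 1 chain passed and its partner chains did not. For GM-CSF this was Csf2ra, the specific chain, with 6.56, 6.6 and 6.47 in deletion, 6.23, 6.01 and 5.73 in anergy and 5.50, 5.68 and 5.70 in naive cells, a difference of 0.55 ± 0.12 (adjusted p = 0.0315, limma). The common chain Csf2rb differed by -0.17 (95% limits -0.41 and 0.06). Whether a chain differed from its partner was not tested. The call of Csf2ra was lost with array medians set equal (adjusted p = 0.0624) and without any 1 of the deletion arrays, anergy replicate 2 or 3 or naive replicate 2 (adjusted p from 0.0502 to 0.127). Of the 18 measured genes of this family none was lower, and Il3ra and Flt3l came next, with 0.30 and 0.23. None of 27 measured genes of the interferon, interleukin-10 and interleukin-17 families passed. Ifnar1, a chain of the type I interferon receptor, differed by 0.56 (adjusted p = 0.0639) and Il17rb by 0.37 (adjusted p = 0.112), and both passed with the replicate number as a block (adjusted p = 0.0383 and 0.0221).

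**Figure D2:**
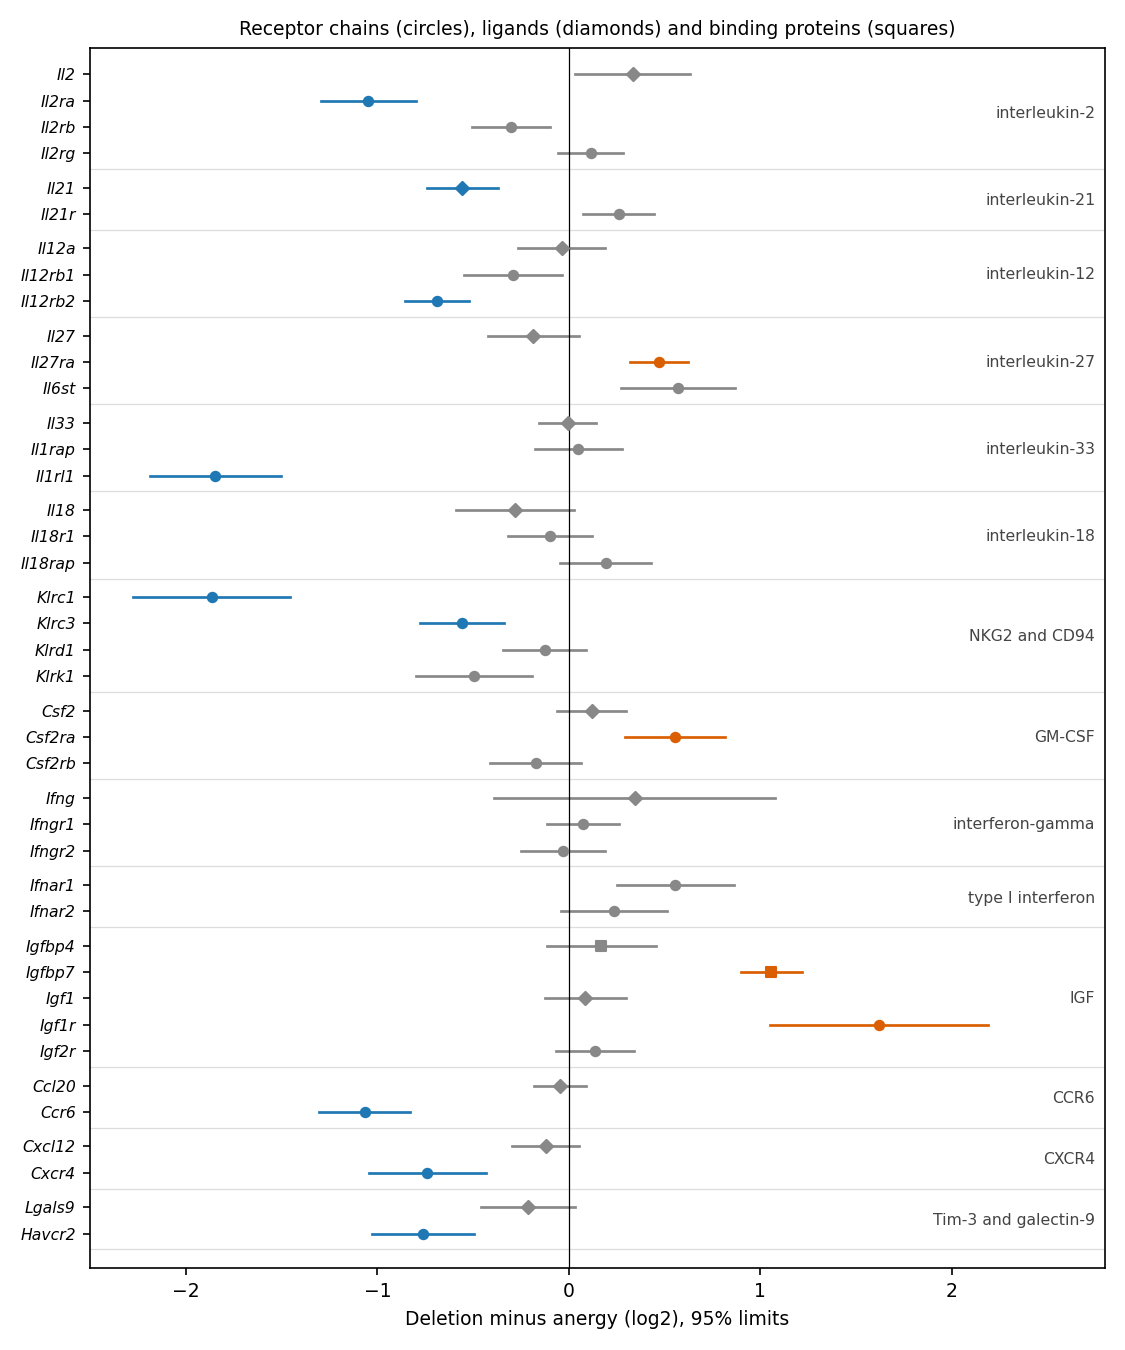
Difference between deletion and anergy (log2, with 95% limits from limma) for receptor chains (circles), ligands (diamonds) and binding proteins (squares), grouped by receptor. Orange marks genes higher in deletion, blue genes lower in deletion and grey genes that did not pass; Il2ra, Il12rb2 and Il1rl1 lie furthest to the left in their sets, at -1.05, -0.69 and -1.85, and the partners Il2rb and Il12rb1 lie to the left too, at -0.30 and -0.29, without passing.

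In the insulin-like growth factor (IGF) system 2 of 12 measured genes passed, both higher in deletion, with a median of 0.01 over the list. Igf1r encodes the receptor of insulin-like growth factors, which promotes growth and survival. It read 5.93, 6.41 and 6.04 in deletion, around the 6.09, 6.03 and 6.02 of naive cells, and 4.97, 4.75 and 3.80 in anergy. Anergy cells alone lay below naive cells, and the difference was 1.62 ± 0.25 (adjusted p = 0.00637, limma), a 3.07-fold higher level in deletion. Without anergy replicate 3, the lowest array, it was 1.27 (adjusted p = 0.00264). In a fit of the 6 deletion and anergy arrays only, Igf1r missed the threshold (adjusted p = 0.0602, limma). Igfbp7 encodes a secreted protein that binds IGFs and insulin. Its deletion arrays read 7.23, 7.23 and 7.28, its anergy arrays 6.16, 6.25 and 6.16, and its naive arrays 4.29, 4.49 and 4.51, so both groups lay above naive cells and deletion further. The difference of 1.06 ± 0.07 (adjusted p = 7.27e-05, limma) had the smallest adjusted p of all probe sets. Igfbp5 (-0.12), Igf2 (-0.16) and the ligand Igf1 (0.09) did not pass.

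Cd83, a surface molecule of activated lymphocytes and dendritic cells, read 7.04, 7.38 and 7.43 in deletion, 6.41, 6.58 and 5.87 in anergy and 4.78, 4.56 and 4.05 in naive cells. The difference was 1.00 ± 0.22 (adjusted p = 0.0358, limma). The call was lost with array medians set equal (adjusted p = 0.0624) and without anergy replicate 1 or 3, deletion replicate 2 or 3 or naive replicate 2 (adjusted p from 0.0587 to 0.134). Without anergy replicate 3 the difference was 0.79. None of 23 measured macrophage and dendritic cell markers passed. Their mean level was 3.54 to 3.65 in deletion, 3.53 to 3.66 in anergy and 3.58 to 3.64 in naive cells, and their part in the result was not tested; Siglec1, Mrc1 and Clec4n had the smallest p-values, with -0.23, 0.48 and 0.24. Vcam1, an adhesion molecule of endothelium and some macrophages, read 2.22, 4.5 and 4.77 on deletion replicates 1 to 3 and 2.06, 2.96 and 2.97 in anergy, a difference of 1.17 within the spread of the arrays (adjusted p = 0.388).

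Among 16 measured selectins, integrins and adhesion molecules, 3 were higher in deletion and none lower, with a median of 0.01. Pecam1, or CD31, a homophilic adhesion molecule that also restrains T cell receptor signals, read 8.97, 9.07 and 8.87 in deletion, 8.40, 8.28 and 8.06 in anergy and 8.52, 8.62 and 8.49 in naive cells. Deletion lay above naive cells and anergy below, and the difference was 0.72 ± 0.09 (adjusted p = 0.00234, limma). Pecam1 is also a marker of endothelium, and the part of such cells in the result was not tested. Of the 12 endothelial, stromal and platelet markers measured it alone passed; Selp and Madcam1 differed by -0.10 each, and the mean level of the list was 3.75 to 3.84 in deletion, 3.74 to 3.84 in anergy and 3.78 to 3.81 in naive cells.

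Cd2, an adhesion and costimulatory molecule of T cells, and Itgae, the integrin chain CD103 that binds E-cadherin, were both far below naive cells in either group. Itgae read 10.15, 9.96 and 10.18 in naive cells, 5.38, 5.37 and 5.56 in deletion and 5.09, 4.91 and 4.98 in anergy. The difference between the antigen groups, 0.44 ± 0.09 (adjusted p = 0.0226, limma), was small beside the distance of each from naive cells. Its call was lost without anergy replicate 2 or 3 or deletion replicate 2 or 3 (adjusted p = 0.077, 0.0551, 0.0513 and 0.0819). Cd2 read 11.68, 11.54 and 11.53 in naive cells, 9.84, 9.82 and 10.38 in deletion and 9.33, 9.40 and 9.48 in anergy. Its difference of 0.61 ± 0.14 (adjusted p = 0.0390, limma) rested on many arrays: the call was lost with quantile normalization (adjusted p = 0.0904) and without any 1 of the arrays except deletion replicate 1 or 3 (adjusted p from 0.0503 to 0.102). Cd2 was the 1 T cell marker of 11 listed that the array measured. In samples of many cells, fewer cells of a type and less RNA per cell cannot be told apart.

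**Figure D3:**
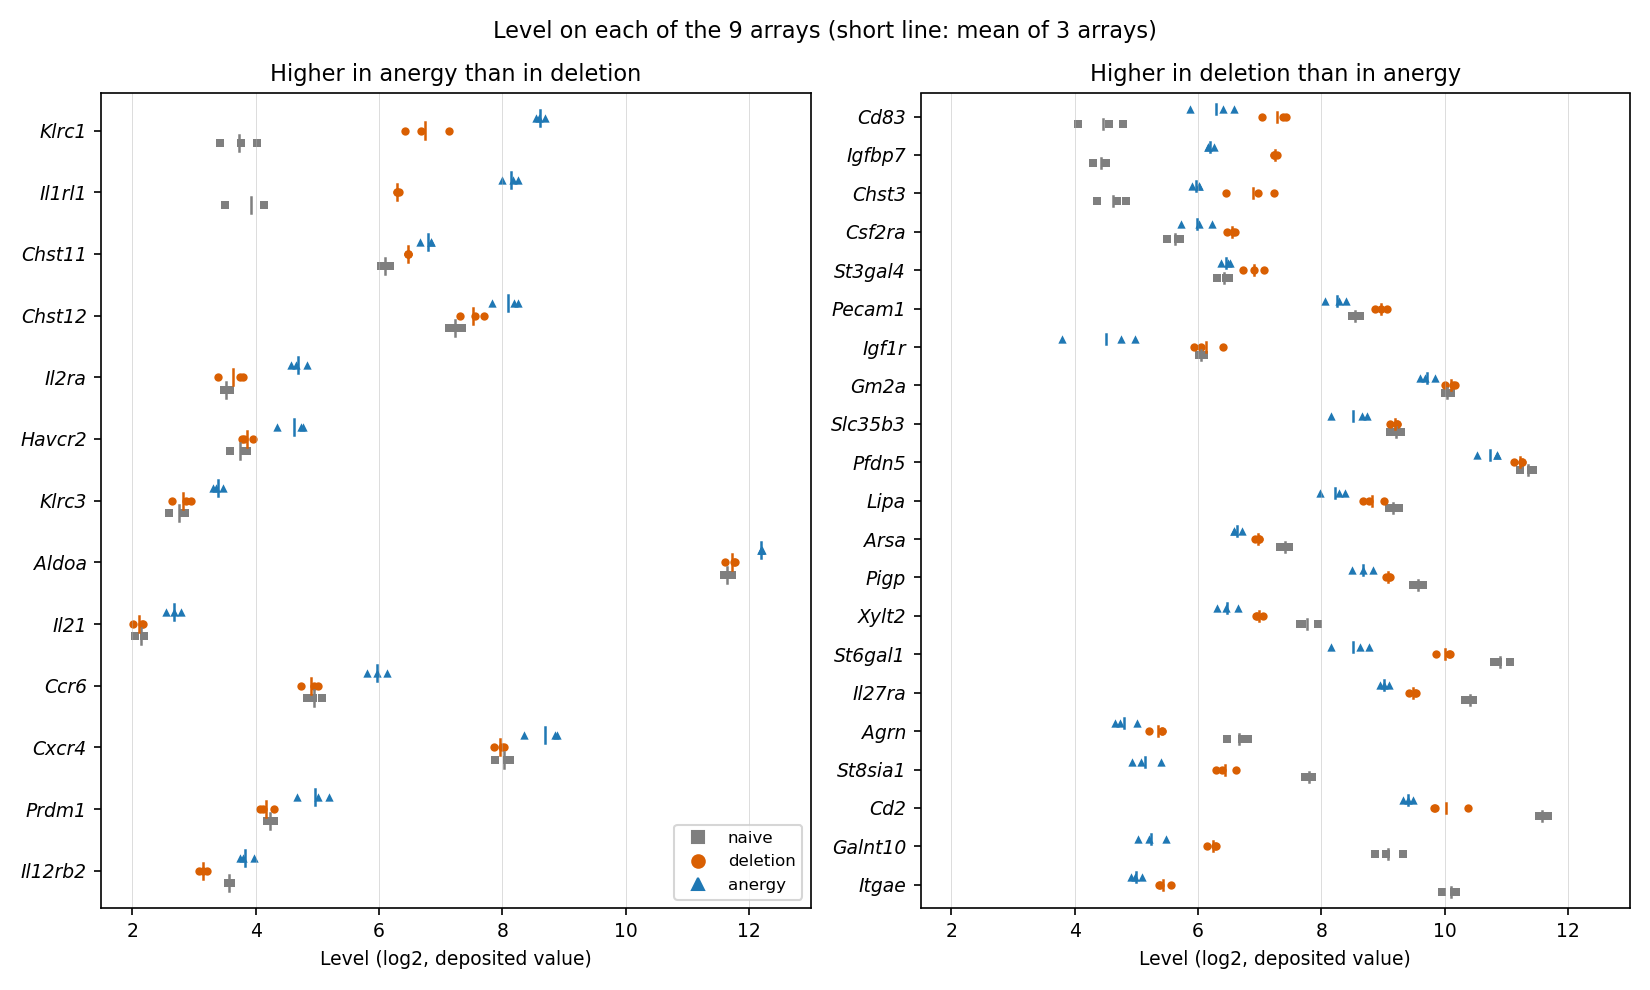
Level on each of the 9 arrays (deposited log2 value) for named genes past the threshold, on the left those higher in anergy and on the right those higher in deletion; grey squares are naive arrays, orange circles deletion arrays and blue triangles anergy arrays, and a short line is the mean of 3 arrays. Klrc1 and Il1rl1 form 3 separate steps, Il2ra and Ccr6 show deletion at the naive level, and St6gal1 and St8sia1 step down from naive to deletion to anergy.

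Of 19 measured sialyltransferases 3 were higher in deletion, against 2.09% of all probe sets, and none lower, with a median of 0.01. St6gal1 caps the galactose ends of N-glycans with sialic acid, making the ligand of CD22. It read 10.86, 11.05 and 10.80 in naive cells, 9.86, 10.08 and 10.07 in deletion and 8.77, 8.63 and 8.16 in anergy. The 3 groups formed a descending order with no overlap, and deletion was higher than anergy by 1.48 ± 0.15 (adjusted p = 0.000368, limma), or 2.8-fold. St8sia1, the GD3 synthase of gangliosides, had the same order. Its naive arrays read 7.84, 7.84 and 7.73, its deletion arrays 6.29, 6.62 and 6.38 and its anergy arrays 4.93, 5.40 and 5.07, a difference of 1.3 ± 0.12 (adjusted p = 0.000368, limma), or 2.46-fold. St3gal4, which adds sialic acid in another linkage, read 6.90, 7.07 and 6.73 in deletion, 6.48, 6.52 and 6.37 in anergy and 6.50, 6.45 and 6.31 in naive cells, so here anergy overlapped naive and deletion stood above. Its difference was 0.44 ± 0.09 (adjusted p = 0.0315, limma). The call of St3gal4 was lost with array medians set equal (adjusted p = 0.0632) and without any 1 of the deletion or anergy arrays other than deletion replicate 3, or naive replicate 1 or 2 (adjusted p from 0.0517 to 0.117).

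St3gal1, which caps core O-glycans and whose loss is known to expose a binding site of peanut lectin on T cells, read 8.73, 8.70 and 8.78 in deletion, 8.54, 8.15 and 8.07 in anergy and 8.91 to 9.13 in naive cells. Its difference of 0.48 ± 0.11 missed the threshold (adjusted p = 0.0540). It passed without anergy replicate 1 (adjusted p = 0.00337). St3gal6 differed by 0.01 (95% limits -0.19 and 0.22). No gene of sialic acid metabolism passed among 12 measured, with a median of 0.15; Neu1, Cmah and Neu3 came nearest, at 0.30, 0.26 and 0.22. The galectins, which bind galactose ends, and the siglecs, which bind sialic acid, held no gene past the threshold among 10 and 9 measured. Galectin genes Lgals8, Lgals4 and Lgals3 differed by 0.40, 0.28 and -0.50, Lgals1 by -0.27, and siglec genes Siglec1, Siglec15 and Cd22 by -0.23, -0.11 and 0.19.

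Galnt10 was the 1 of 19 measured polypeptide GalNAc transferases, the enzymes that start mucin-type O-glycans, to pass. It read 8.87, 9.32 and 9.05 in naive cells, 6.15, 6.29 and 6.27 in deletion and 5.20, 5.48 and 5.02 in anergy, in the same descending order as St6gal1. The difference was 1.00 ± 0.13 (adjusted p = 0.00275, limma), and the list's median was 0.03. Galnt11 (0.49, adjusted p = 0.0642) and Galnt6 (0.25, adjusted p = 0.0703) came next, and without anergy replicate 3 Galnt11 passed (adjusted p = 0.0426). None of 11 genes of core O-glycan extension passed. Among them B4galt5 differed by -0.34 (adjusted p = 0.0858, and 0.0344 with the replicate number as a block), B3gnt6 by -0.15 and A4gnt by 0.13. The O-glycan enzymes C1galt1 and Gcnt1 differed by 0.06 and 0.02.

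Fut7, the fucosyltransferase that completes the ligand of selectins, had deletion arrays at 6.97, 7.26 and 6.74 and anergy arrays at 6.44, 6.44 and 6.21, with naive arrays at 5.52 to 5.94. The groups did not overlap, and the difference of 0.63 ± 0.15 just missed the threshold (adjusted p = 0.0523). With the replicate number as a block it passed (adjusted p = 0.00422). No other gene of 15 in fucosylation passed, Gmds and Fut2 being next at -0.31 and 0.12. Among 20 genes of N-glycan trimming and branching none passed, with Man2a2 at 0.61, B3gnt9 at 0.15, Mgat2 at -0.26 and Mgat5 at -0.09. Among 16 of the N-glycan precursor none passed, with Alg8 at -0.27, Dpm2 at 0.21 and Rpn2 at -0.23. Without anergy replicate 3, Alg8 and Gmds passed (adjusted p = 0.0389 and 0.0426). Of 10 genes that attach O-mannose, O-GlcNAc or O-fucose none passed, with Oga at 0.20, Pomgnt1 at 0.14, Ogt at 0.26 and a median of 0.15. In glycosphingolipid synthesis St8sia1 was the 1 gene of 16 past the threshold, and St3gal5 differed by -0.23.

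The enzymes of heparan and chondroitin sulfate, the long sulfated chains of proteoglycans, moved in both directions, with 3 of 45 measured genes higher in deletion, 2 lower and a median of 0.04. Chst3 sulfates a different carbon of chondroitin from Chst11 and Chst12. Chst3 read 6.97, 7.23 and 6.46 in deletion, 6.01, 6.01 and 5.90 in anergy and 4.83, 4.69 and 4.36 in naive cells, a difference of 0.91 ± 0.18 (adjusted p = 0.0231, limma). Chst12 read 7.70, 7.31 and 7.56 in deletion, 8.26, 8.19 and 7.83 in anergy and 7.25, 7.13 and 7.34 in naive cells, and Chst11 read 6.47 on each deletion array, 6.85, 6.85 and 6.67 in anergy and 6.08, 6.18 and 6.03 in naive cells. Their differences were -0.57 ± 0.13 (adjusted p = 0.0458) and -0.32 ± 0.07 (adjusted p = 0.0358, limma). Thus all 3 sulfotransferases lay above or overlapped the naive level in both groups, Chst3 higher in deletion and the others higher in anergy.

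Upstream of these steps, Xylt2, which starts the chains on the core protein, read 6.94, 7.05 and 6.96 in deletion, 6.65, 6.46 and 6.31 in anergy and 7.69, 7.95 and 7.66 in naive cells, a difference of 0.51 ± 0.10 (adjusted p = 0.0261, limma). Slc35b3, a Golgi transporter of the activated sulfate that these enzymes use, read 9.23, 9.23 and 9.12 in deletion, 8.74, 8.65 and 8.16 in anergy and 9.12, 9.22 and 9.29 in naive cells. Its difference was 0.68 ± 0.13 (adjusted p = 0.0230, limma), and it was the 1 gene past the threshold of 42 in nucleotide sugar synthesis and transport, where Galk1 and Gnpda1 came next at -0.41 and -0.27. With quantile normalization 7 genes of that list were lower. Agrn, the core protein agrin, read 5.21, 5.41 and 5.41 in deletion, 5.01, 4.74 and 4.65 in anergy and 6.47, 6.72 and 6.81 in naive cells. Its difference was 0.54 ± 0.12 (adjusted p = 0.0335, limma), and it was the 1 gene of 31 proteoglycan core proteins to pass, with Vcan at 0.36 and Srgn at 0.25. With the replicate number as a block Agrn missed the threshold (adjusted p = 0.0535). Hpse, the heparanase, differed by -0.28 (adjusted p = 0.215).

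The calls in the sulfated chains were among the least firm. Leaving out deletion replicate 2 ended the calls of Chst3, Chst11, Chst12, Xylt2, Slc35b3 and Agrn (adjusted p from 0.0874 to 0.163), and leaving out anergy replicate 3 those of Chst3, Xylt2 and Agrn (adjusted p = 0.0901, 0.0722 and 0.110). Leaving out deletion replicate 1 ended those of Chst3, Chst11, Xylt2 and Slc35b3 (adjusted p from 0.0553 to 0.0958), and leaving out deletion replicate 3 those of Chst11, Chst12, Xylt2, Slc35b3 and Agrn (adjusted p from 0.0563 to 0.127). Without anergy replicate 2, all but Slc35b3 were lost (adjusted p from 0.0747 to 0.134), and without anergy replicate 1 Chst3, Chst11 and Chst12 were lost (adjusted p from 0.055 to 0.111). Single naive arrays ended the calls of Chst11, Chst12 and Agrn (adjusted p from 0.0602 to 0.0846), and setting array medians equal ended all of them but that of Chst3 (adjusted p from 0.0521 to 0.151).

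Of 28 measured genes of lysosomal glycan and lipid breakdown 4 were higher in deletion, against 2.09% of all probe sets, and none lower. Their median was 0.18 against -0.01 over all probe sets. The list is bright, with a mean level of 7.03 to 7.45 on the 9 arrays, and the median over the 312 brightest probe sets was 0.097. Lipa, the lysosomal acid lipase, read 8.77, 9.01 and 8.68 in deletion, 8.39, 8.28 and 7.98 in anergy and 9.15, 9.25 and 9.10 in naive cells, a difference of 0.60 ± 0.12 (adjusted p = 0.0226, limma). Gm2a, the activator protein for ganglioside breakdown, read 10.01, 10.17 and 10.13 in deletion, 9.68, 9.84 and 9.60 in anergy and a mean of 10.04 in naive cells. Arsa, which removes sulfate from sulfatide, read 6.99, 6.99 and 6.93 in deletion, 6.72, 6.59 and 6.59 in anergy and 7.41, 7.48 and 7.33 in naive cells. Their differences were 0.40 ± 0.08 and 0.34 ± 0.07 (adjusted p = 0.0226 each). Anergy was the lowest group for all 3 genes, while the deletion arrays overlapped naive ones for Gm2a alone. With quantile normalization the difference of Arsa was 0.20 (adjusted p = 0.0894). With array medians set equal 1 of the 28 genes was higher, and without anergy replicate 3 there were 2. Gm2a is among the brighter genes, for which anergy replicate 3 read low: without that array its adjusted p was 0.0503. Without deletion replicate 2 all 3 calls were lost (adjusted p from 0.0940 to 0.107). Leaving out anergy replicate 2 ended the calls of Lipa and Arsa (adjusted p = 0.0594 and 0.0758), deletion replicate 3 those of Gm2a and Arsa (0.0873 and 0.0563), deletion replicate 1 that of Arsa (0.0655) and anergy replicate 1 that of Gm2a (0.0587).

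Pigp, a subunit of the enzyme that begins GPI anchors, was the 1 of 6 measured genes of that pathway to pass. It read 9.04, 9.11 and 9.10 in deletion, 8.68, 8.83 and 8.49 in anergy and 9.56, 9.65 and 9.48 in naive cells, a difference of 0.42 ± 0.09 (adjusted p = 0.0315, limma). Its call was lost with array medians set equal (adjusted p = 0.0712) and without any 1 deletion array, anergy replicate 1 or 3 or naive replicate 1 (adjusted p from 0.051 to 0.127). Pigm and Dpm2 differed by -0.08 and 0.21. Pfdn5, a subunit of the chaperone prefoldin, differed by 0.48 (adjusted p = 0.0287), a call that was lost with array medians set equal (adjusted p = 0.0632) and without deletion replicate 2 or 3 or naive replicate 1 (adjusted p = 0.120, 0.108 and 0.0517).

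Aldoa, the aldolase of glycolysis, was lower in deletion on both of its probe sets. The brighter one read 12.21, 12.19 and 12.20 in anergy, 11.76, 11.62 and 11.78 in deletion and 11.60, 11.72 and 11.63 in naive cells, a difference of -0.48 ± 0.06 (adjusted p = 0.00275, limma), and the other one differed by -0.44. With quantile normalization the difference was -0.20 and did not pass (adjusted p = 0.261). The other 2 measured genes of glycolysis, Hk1 and Gpi1, differed by -0.06 and -0.01. The cell cycle genes Cks1b and Cks2 were far above naive cells in both antigen groups and differed between them by -0.24 and -0.20, with overlapping arrays and 95% limits that include 0 for both.

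Among 19 measured genes of the TGF-beta family none passed; Tgfbr2, Tgfb3 and Bmp1 came nearest, at 0.46, -0.16 and -0.24, and Tgfbr2 passed with the replicate number as a block (adjusted p = 0.0322). Among 14 of Notch and Fringe none passed, with Jag2 at 0.25, Notch1 at 0.39 and Mfng at 0.31. The interleukin-7 receptor Il7r differed by 0.14 (95% limits -0.31 and 0.59). None of 6 measured B cell markers passed, with Cxcr5 at 0.53 (adjusted p = 0.0990), Fcer2a at -0.09 and Cd22 at 0.19. Of the 6, 5 had positive differences and 1 a negative one, with a median of 0.13 against -0.01 over all probe sets. Their mean level was 5.87 to 6.35 in deletion, 5.88 to 5.89 in anergy and 5.78 to 6.03 in naive cells. None of 4 erythroid and granulocyte markers passed either, with a mean level of 3.48 to 3.64 in deletion and 3.43 to 3.56 in anergy. The part of either list in the result was not tested. Over the 12 gene lists without a gene past the threshold, limma gave 27 of 187 genes an unadjusted p under 0.05, and over these 3 marker lists (B cell, macrophage and dendritic cell, erythroid and granulocyte) 2 of 33, against 188 of all 1246 probe sets.

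**Figure D4:**
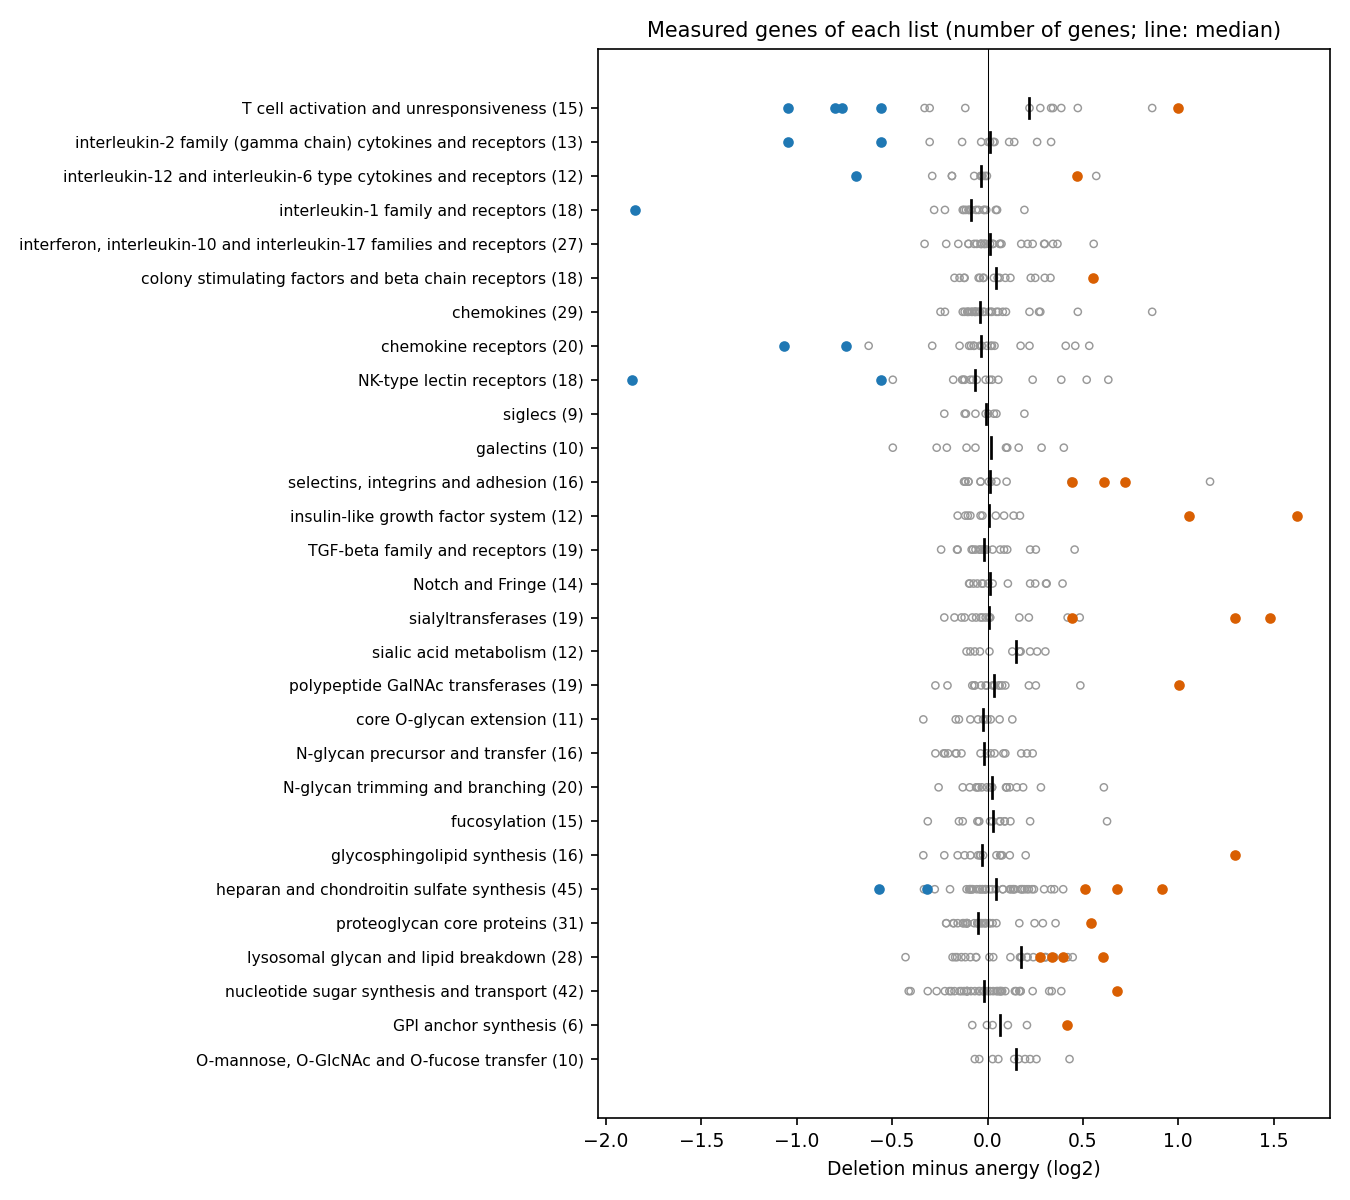
Difference between deletion and anergy (log2) of every measured gene of each gene list, with 1 point per gene and a line at the list's median. Filled orange and blue points are genes past the threshold, higher and lower in deletion; most medians lie near 0, and the calls of a list are single genes at its edge.

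Past the threshold, 5 probe sets could not be named from the table used here. Those higher in anergy were uc009ego.1_psr1_at, with 9.19, 9.46 and 9.34 in anergy, 7.72, 7.28 and 7.90 in deletion and 2.84, 2.83 and 2.53 in naive cells, and uc009egi.1_psr1_a_at, with 7.41, 7.17 and 6.86, 6.28, 5.59 and 6.40, and 3.35, 3.11 and 3.25 in the same order. Both followed the order of Klrc1, with differences of -1.70 and -1.06. Those higher in deletion included uc007lzi.1_psr1_s_at, at 0.79, and uc009txd.1_psr1_s_at, at 0.67.

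Against the naive reference the called probe sets fell into unequal kinds, given here without a test because a call already requires 1 group to lie away from the other. Of the 16 that were lower in deletion, the naive mean lay below both groups for 11 (68.8%, against 34.7% of all probe sets). It lay between them for 5 of the 16 (31.2%, against 24.6% of all probe sets). The deletion arrays overlapped the naive ones for 10 of the 16 (62.5%, against 68.5% of all probe sets) and the anergy arrays for none (against 66.1%). Of the 26 that were higher in deletion, the naive mean lay above both groups for 16 (61.5%, against 40.8% of all probe sets). It lay below both for 6 (23.1%) and between for 4 (15.4%), against 34.7% and 24.6% of all probe sets. Here the deletion arrays overlapped the naive ones for 4 and the anergy arrays for 1, St3gal4. The deletion mean was the nearer to naive for 15 of the 16 and 18 of the 26, against 63.6% of all probe sets.

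**Figure D5:**
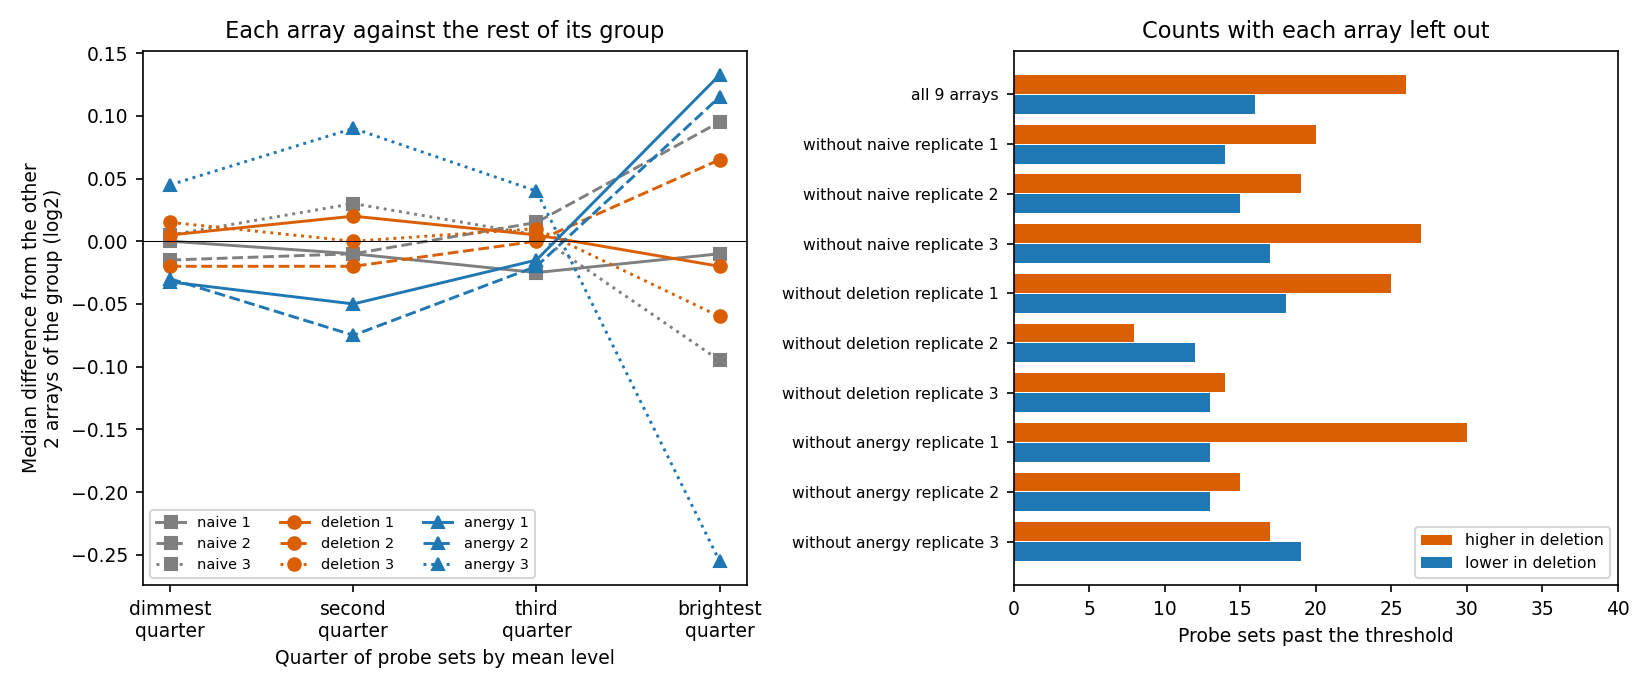
Left, the median difference (log2) of each array from the other arrays of its group in 4 bins of the probe sets by mean level, from dim to bright; right, the number of probe sets past the threshold with all 9 arrays and with each array left out, orange for higher and blue for lower in deletion. Anergy replicate 3 lies at -0.255 in the brightest bin, and the count of higher probe sets runs from 8 to 30.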

How the data were processed

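Total RNA was extracted with Trizol, per the labels' protocols, and biotin-labelled material made from 0.5 micrograms of it was hybridised to single-colour Affymetrix arrays. The authors deposited 1 log2 value per probe set and array, made with RMA per the submitters' processing notes; no version or setting is stated there. Values ranged from 1.67 to 13.86 and were used without further scaling or filter. Array medians were 4.44 to 4.58, and the number of arrays limits the precision. RefSeq accessions named 963 of 1246 probe sets (77.3%) as 909 genes through a RefSeq table of GRCm38.p6, and the other 283 stayed unnamed. Where a gene has several probe sets, the brightest on average stands for it. By their names, 10 of the 26 probe sets higher in deletion and 6 of the 16 lower can bind more than 1 transcript. Among them are those of Igfbp7, St8sia1, Ccr6, St3gal4, Xylt2, Pigp and Pfdn5 and both of Aldoa.

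The contrast deletion minus anergy was estimated by lmFit and eBayes of limma 3.58.1 (R 4.3.3). All 9 arrays entered without a block, leaving 6 residual degrees of freedom. Tests were two-sided, with Benjamini-Hochberg adjustment over 1246 probe sets and a threshold of 0.05. The procedure was tested on simulated data with independent noise of equal size on every array. Such data hold neither an array that stands apart, as anergy replicate 3 does, nor the pairing described below, so that check does not cover them. The groups compared, the gene lists and the genes to name were chosen with earlier results of these data known. Named genes are those past the threshold, the 3 of smallest p in each list of at least 5 measured genes and a fixed set of glycan and T cell genes; some single genes are not reported here. Promoter sequences are RefSeq's, of GRCm38.p6. Deletion and anergy arrays of the same number deviated together from their group means over the 1246 probe sets (r = 0.195, 0.270 and 0.280), a pairing seen in the data and not stated by the labels. Pairs of unlike number had r from -0.303 to 0.160, and naive arrays were not checked in this way. Because of the pairing, the fit with the replicate number as a block is given where it changes a call. It called 33 probe sets higher and 22 lower. Other alternatives were quantile normalization, equal array medians, array weights, no moderation, a trended robust prior, keeping the 831 brighter probe sets, fitting 6 arrays only and leaving out each array.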

Additional observations from a re-analysis of the deposited data

How the results depend on the processing

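None of the 42 probe sets changed sign under an alternative that tested it. Of the 36 genes past the threshold, 14 passed under each alternative followed gene by gene, which leaves out the fit without moderation. These alternatives were 16, or 15 for Il12rb2, Il21 and Klrc3, not among the 831 brighter probe sets. With array medians set equal 13 probe sets were higher in deletion, and 11 of the listed genes, with 14 named calls lost. In a fit of the 6 deletion and anergy arrays only, 8 probe sets and 6 listed genes were higher, and 13 probe sets were lower. That fit ended the calls of 19 of the 36 genes, among them Igf1r, Cxcr4, Csf2ra, Cd83, Cd2, Itgae, St3gal4, Pigp and Pfdn5. Lipa, Gm2a, Arsa, Slc35b3, Agrn, Xylt2, Chst3, Chst11 and Chst12 lost their calls there too. Array weights, which gave anergy replicate 3 a weight of 0.196, made 44 probe sets higher and 31 lower (listed genes 33 and 24). Quantile normalization made 38 probe sets and 28 listed genes lower. Without moderation 5 were higher and 9 lower. Leaving out each array in turn gave 8 to 30 probe sets higher and 12 to 19 lower, and 7 to 25 listed genes higher and 9 to 15 lower; the lowest counts of probe sets, 8 and 12, came without deletion replicate 2, and without deletion replicate 3, anergy replicate 2 and anergy replicate 3 the higher counts were 14, 15 and 17. Leaving out 1 array also brought some genes past the threshold: without anergy replicate 1 Il6st, Galnt11, Ifnar1 and Vcan (adjusted p = 0.0074, 0.0348, 0.0331 and 0.0178), without deletion replicate 1 Hpse, Clec4n, Il17rb and B4galt5 (0.0413, 0.0413, 0.0494 and 0.0499), and without deletion replicate 3 or naive replicate 3 Fut7 (0.0337 and 0.0344). The fit with the replicate number as a block called 33 higher and 22 lower and, beyond the calls given above, changed no other call of a gene named here. The cause of these changes was not tested. With a trended robust prior Arsa and Chst11 missed the threshold (adjusted p = 0.0694 and 0.0866). No detection call was used, so whether dim probe sets exceeded background is not known.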
